A study of Homo sapiens with 6 samples.

Results

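The chemokine ligands are a family of small secreted proteins, and a few that are anchored in the membrane, that guide the movement of leukocytes. All clusters of the array whose annotated gene symbol was CCL, CXCL, CX3CL or XCL with a number were taken, by name and not by any measured value. That gave 38 clusters of 37 genes with 1 symbol each, and 8 more clusters shared by several symbols, which are described apart, among 33297 clusters in all. The samples were 6 Affymetrix Gene 1.0 ST arrays of RNA from HEK293, an established line derived from human embryonic kidney, 3 labelled control and 3 labelled treatment. A cluster is the set of probes that reads 1 transcribed locus. According to the design text, the comparison was of untreated cells with ones that had received the empty plasmid pCMV9, whereas the source labels give the control cells a transient vector and the treatment cells a Neo vector, so the groups are called control and treatment here. Both groups are the same line, no label gives a time or dose, and none says whether the arrays of a group came from separate cultures. The p-values therefore reflect array-to-array spread, part or all of which may be technical. The stated question was which mediators accompany an anti-HIV effect of the empty vector.

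Chemokines are named for the spacing of their first cysteines (CC, CXC, CX3C and XC) and act through G protein-coupled receptors on leukocytes. CCL3, CCL4 and CCL5 are inflammatory CC ligands that draw monocytes and T cells. CXCL9, CXCL10 and CXCL11 share the receptor CXCR3 of activated T and NK cells. Their genes are known targets of interferons, through the interferon-stimulated response element (ISRE), and of NF-kB.

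CCL5, CXCL10 and CXCL11 rose in the treatment arrays, and no chemokine ligand fell. CCL5 had the largest change, 2.58 ± 0.228 (SE) in log2(intensity + 16). CXCL10 changed by 1.62 ± 0.26 and CXCL11 by 1.15 ± 0.211 on that scale. Adding 16 keeps very low intensities from dominating a log scale, and it understates the change of dim clusters. "Rose" and "fell" mean an adjusted p under 0.05 in limma, with Benjamini-Hochberg adjustment over all clusters. That threshold called 3 of the 38 chemokine clusters, against 0.372% of all clusters (0.357% as rises and 0.015% as falls). The other 35 did not pass, with adjusted p from 0.389 to 0.998 and changes from -0.41 to 0.78.

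The sequences upstream of the 3 CXCR3 ligand genes are shown because 2 of the 3 rose and the other did not pass. They are the 250 bases before each gene's start, taken from RefSeq on build GRCh38.p14, all on the minus strand of chromosome 4, written 5′ to 3′ along the gene. Capitals mark 3 motifs: GAAANNGAA, a core of the ISRE, GGGNNNTTC, part of the NF-kB site, and TATAAA, the TATA box.
CXCL10 (chr4:76023498-76023747): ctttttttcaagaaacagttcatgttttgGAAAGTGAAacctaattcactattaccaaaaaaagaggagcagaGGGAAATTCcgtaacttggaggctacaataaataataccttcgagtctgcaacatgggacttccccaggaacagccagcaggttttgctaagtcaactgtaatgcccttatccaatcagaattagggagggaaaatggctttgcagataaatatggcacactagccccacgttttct
CXCL11 (chr4:76036071-76036320): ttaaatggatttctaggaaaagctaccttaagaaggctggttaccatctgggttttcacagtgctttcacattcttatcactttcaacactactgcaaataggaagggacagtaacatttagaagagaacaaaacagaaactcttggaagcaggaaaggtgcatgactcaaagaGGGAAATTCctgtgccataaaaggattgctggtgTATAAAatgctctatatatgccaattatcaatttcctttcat
CXCL9 (chr4:76007510-76007759): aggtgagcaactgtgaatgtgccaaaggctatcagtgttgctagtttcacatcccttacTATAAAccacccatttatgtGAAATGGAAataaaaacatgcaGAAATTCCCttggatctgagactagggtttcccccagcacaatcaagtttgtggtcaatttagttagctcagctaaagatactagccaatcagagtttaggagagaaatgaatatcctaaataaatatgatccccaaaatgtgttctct

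Both strands were searched, overlapping matches included, and a match describes letters, not a bound site. Only these exact letters were searched, so a window without a match may still hold a variant of the site. The upstream window of CXCL10 held the ISRE core, 221 to 213 bases before the start, and the NF-kB letters, 177 to 169 bases before it. The window of CXCL11 held the same NF-kB letters, GGGAAATTC, 76 to 68 bases before the start, and a TATA box 42 to 37 bases before it. It held no exact match to the ISRE core, but its letters aaaacagaa differ from GAAANNGAA in the first base only. CXCL9 held an ISRE core 171 to 163 bases before its start and the NF-kB letters on the opposite strand, 149 to 141 bases before it. By exact letters, none of the 3 motifs was in both CXCL10 and CXCL11 and missing from CXCL9. Over all 35116 RefSeq windows of the same length, 6.88% held the ISRE core, 13.3% the NF-kB letters and 10.7% the TATA box. RefSeq windows were matched for 27 of the 37 ligand genes, a few of them with more than 1 start, for 32 windows. A ligand gene was counted if any of its windows matched, whereas the shares above are per window, so the units differ. Among the 27, 6 held the ISRE core (CCL3, CCL19, CXCL2, CXCL3, CXCL9 and CXCL10), 16 the NF-kB letters and 11 the TATA box. The counts depend on the length of the motif: with 1 more A required at the end of the ISRE core, 2 of the 27 matched (CXCL9 and CXCL10) and 3.02% of all windows, and with 1 more C at the end of the NF-kB letters, 10 of the 27 and 5.67%, with CXCL9 no longer among them. CCL5 was not among the matched genes.

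The NF-kB letters were also found in the ligands CXCL1, CXCL2, CXCL3, CXCL5 and CXCL6, which attract neutrophils and did not pass in these arrays. Stretches of 23 bases around the match on the gene's own strand are compared with CXCL10 and CXCL11, with the motif in capitals. All are from chromosome 4 of GRCh38.p14.
CXCL10 (chr4:76023659-76023681, minus strand): gagcagaGGGAAATTCcgtaact
CXCL11 (chr4:76036131-76036153, minus strand): tcaaagaGGGAAATTCctgtgcc
CXCL1 (chr4:73869307-73869329, plus strand): gaactccGGGAATTTCcctggcc
CXCL2 (chr4:74099258-74099280, minus strand): gagctccGGGAATTTCcctggcc
CXCL3 (chr4:74038753-74038775, minus strand): gagctccGGGAATTTCcctggcc
CXCL5 (chr4:73998753-73998775, minus strand): gagttcaGGGAATTTCcccagca
CXCL6 (chr4:73836581-73836603, plus strand): gagttcaGGGAATTTCcccagca
The stretches of CXCL2 and CXCL3 are the same, as are those of CXCL5 and CXCL6. In these 5 ligands the motif shown starts 78 to 91 bases before the gene's start and is matched on both strands by overlapping letters. CXCL1, CXCL2 and CXCL3 each held a further match on the opposite strand, not shown. It lay 235 to 227, 211 to 203 and 227 to 219 bases before the start, respectively. The other ligands with a match were CCL1, CCL18, CCL19, CCL20, CCL23, CCL24, CXCL9, CXCL13 and XCL2. Thus 14 of the 25 matched ligands that did not pass held these letters, as did both of the matched ligands that rose. The window of CXCL8 held no match. Variants of the NF-kB site outside these exact letters were not counted, so the counts do not show which ligands have such a site.

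**Figure D1:**
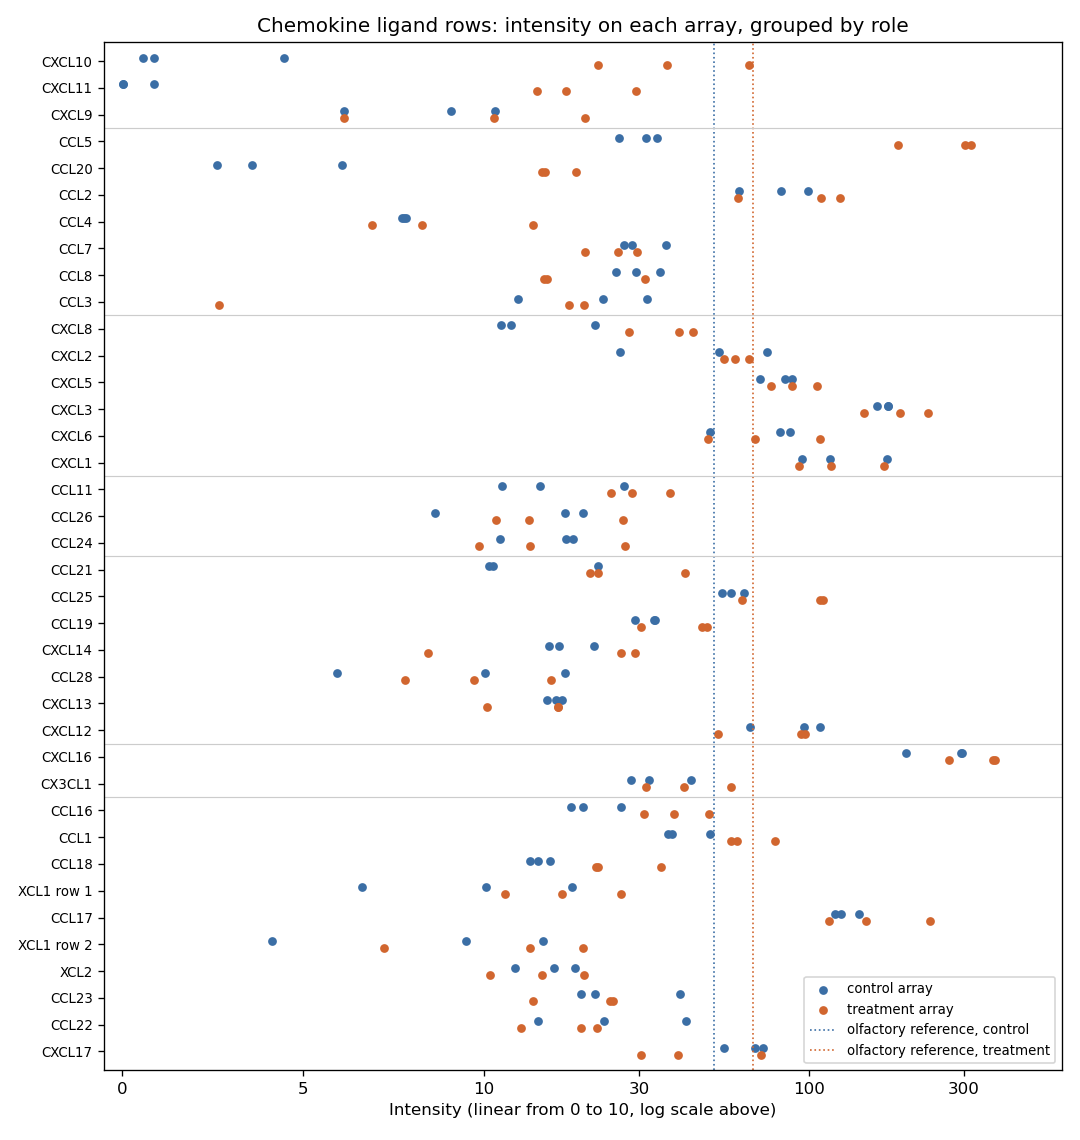
Intensity of the 38 chemokine clusters on each of the 6 arrays (horizontal axis, linear from 0 to 10 and logarithmic above), grouped by role, with dotted lines at the 95th percentile of olfactory receptor clusters, 51.2 in control and 67.4 in treatment arrays. CCL5 alone has all its points below the control line in the control arrays and all above the treatment line in the treatment arrays, and the points of CXCL10 and CXCL11 lie below the line of their own group.

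Most chemokine ligands were dim in this line. As a reference for dim signal, the 360 clusters of olfactory receptor genes, which are not expected to be active in kidney-derived cells, had a 95th percentile of mean intensity of 51.2 in the control and 67.4 in the treatment arrays. Of the 38 chemokine clusters, 27 lay below it in both groups and 9 above it in both: CCL2, CCL17, CCL25, CXCL1, CXCL3, CXCL5, CXCL6, CXCL12 and CXCL16. CCL5 was above it in the treatment arrays only, and CXCL17 in the control arrays only. Array intensities of different probes are not comparable as amounts of RNA, and a dim cluster is not shown to be absent.

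CCL5 (RANTES), which attracts T cells, monocytes and eosinophils, read 34.1, 26.0 and 31.6 in control replicates 1 to 3. In the treatment arrays it read 188, 301 and 315. The lowest treatment value was far above the highest control value. Mean intensity went from 30.6 ± 4.17 to 268 ± 69.5 (SD, n = 3), a ratio of 8.77 on the linear scale. The log2 change of 2.58 had a 95% interval from 2.09 to 3.07 (limma, adjusted p = 3.87e-05). It passed under each of its 16 processing alternatives, with changes from 1.96 to 3.11 and adjusted p up to 0.0325. Of the 360 olfactory receptor clusters, 0 changed by as much in either direction, and their changes ran from -0.78 to 0.74.

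CXCL10 (IP-10), a CXCR3 ligand that attracts activated T cells, read 4.47, 0.862 and 0.565 in the control arrays. It read 36.6, 65.5 and 22.5 in the treatment arrays. All treatment arrays were above all control arrays, with replicate 2 the highest and replicate 3 the lowest. Means were 1.97 ± 2.18 and 41.5 ± 21.9 (SD, n = 3), and the log2 change of 1.62 had a 95% interval from 1.06 to 2.17 (limma, adjusted p = 0.00943). The treatment mean was below the olfactory reference, and 0 of the 360 olfactory receptor clusters changed by as much. Its call ended under 7 of 14 alternatives: when control replicate 1 (adjusted p = 0.0767), 2 (0.0642) or 3 (0.0624) or treatment replicate 2 (0.0616) was left out, and at every other offset. The change stayed between 1.33 and 1.87 whichever array was left out. With a plain log2 it was 4.86 (adjusted p = 0.29), with an offset of 1 it was 3.95 (0.0862) and with an offset of 50 it was 0.79 (0.294).

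CXCL11 (I-TAC), the ligand with the highest affinity for CXCR3, read 0.00373, 0.0046 and 0.86 in the control arrays, at the bottom of the intensity scale. It read 17.8, 29.5 and 14.6 in the treatment arrays. Here too the groups did not overlap, and treatment replicate 2 was highest and replicate 3 lowest. Means were 0.289 ± 0.494 and 20.6 ± 7.84 (SD, n = 3), and the log2 change of 1.15 had a 95% interval from 0.69 to 1.60 (limma, adjusted p = 0.0274). This cluster too was below the reference in both groups, and again 0 of the 360 changed by as much. Its call ended when control replicate 1 (adjusted p = 0.202), 2 (0.175) or 3 (0.128) or treatment replicate 2 (0.314) was left out, with the replicate number as a block (0.0967), with a plain log2 (0.529, change 9.65) and with an offset of 50 (0.396, change 0.48). With an offset of 1 the change was 4.07 and the call held (0.0133).

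CXCL9 (MIG), the third CXCR3 ligand and best known as a target of interferon gamma, did not pass. It read 10.8, 9.08 and 6.14 in the control and 10.8, 6.13 and 20.5 in the treatment arrays. The groups overlapped, and treatment replicate 3 alone was above all control arrays. The log2 change was 0.18 ± 0.225, with a 95% interval from -0.30 to 0.66 (limma, adjusted p = 0.88), and -0.0154 without treatment replicate 3. The interval does not reach the estimate of either CXCL10 or CXCL11, but the difference between these genes was not tested.

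**Figure D2:**
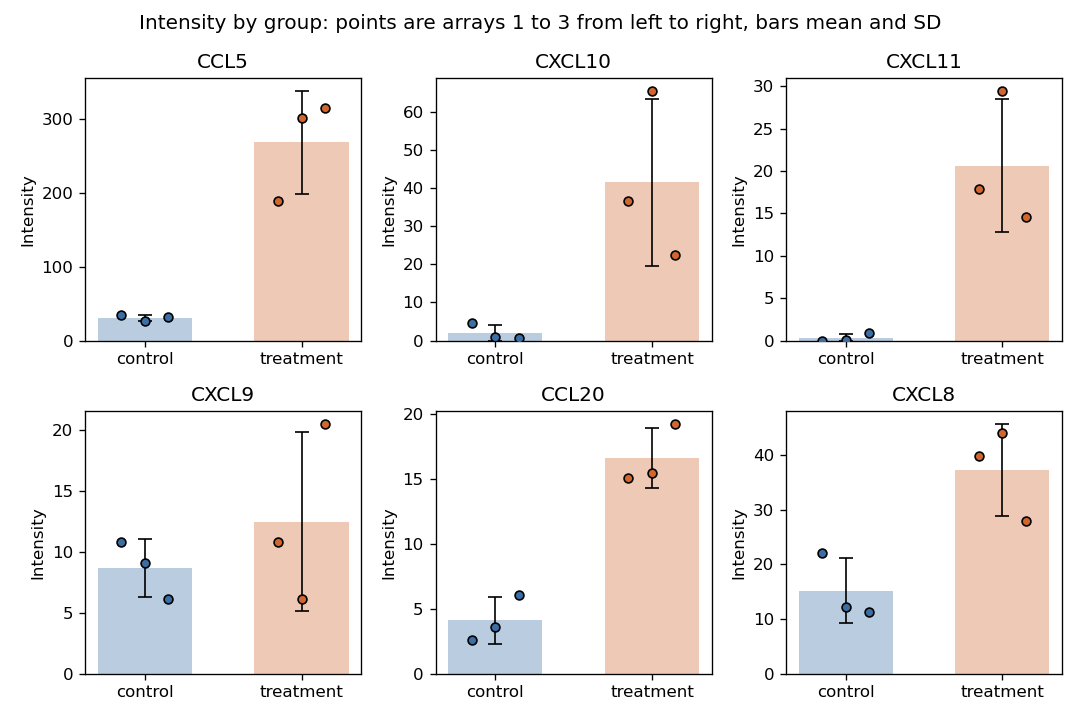
Intensity (linear axes from 0, 1 scale per gene) of 6 ligands in the 3 control and 3 treatment arrays. Points are arrays, bars are means and error bars are SDs, cut at 0 where they would go below it. The groups are apart in every panel except that of CXCL9, whose treatment values of 10.8, 6.13 and 20.5 overlap the control values.

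Among the other inflammatory CC ligands, CCL20, which draws dendritic cells and Th17 cells through CCR6, had the lowest p. It read 2.61, 3.58 and 6.08 in the control and 15.1, 15.4 and 19.2 in the treatment arrays. The groups did not overlap, but the change of 0.70 ± 0.195 did not pass (limma, adjusted p = 0.389, unadjusted p = 0.00316). Of the 360 olfactory receptor clusters, 2 changed by at least as much, 1 of them upward.

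CCL2 (MCP-1), a monocyte attractant, read 61.0, 81.8 and 99.2 in the control and 109, 125 and 60.3 in the treatment arrays. Treatment replicate 3 lay below all control arrays, while replicates 1 and 2 lay above them. The change was 0.21 ± 0.256, with an interval from -0.34 to 0.76. CCL7 (MCP-3), another monocyte attractant, read 36.5, 27.1 and 28.6, then 20.4, 26.0 and 29.6, a change of -0.18 ± 0.201. CCL8 (MCP-2) read 29.4, 25.5 and 34.8, then 31.4, 15.6 and 15.3, a change of -0.34 ± 0.222. Both sets of values overlapped, and neither gene passed.

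The macrophage inflammatory proteins CCL3 and CCL4 did not pass. CCL3 (MIP-1 alpha) read 12.7, 23.2 and 31.8 in the control and 20.3, 18.2 and 2.67 in the treatment arrays. Treatment replicate 3 was the low array. The change was -0.41 ± 0.277, and -0.10 without it. CCL4 (MIP-1 beta) read 7.78, 7.86 and 7.75 in the control and 6.91, 8.30 and 14.2 in the treatment arrays. Its change was 0.11 ± 0.199, and -0.0124 without treatment replicate 3.

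The clusters shared by several symbols gave another picture for CCL4. CCL3 and CCL4 have near-identical copies in the genome, so these probes cannot assign signal to 1 gene. A pair of clusters shared by CCL4L1, CCL4L2 and CCL4 held the same values on all arrays: 8.09, 6.09 and 5.34 in the control and 22.9, 19.7 and 23.4 in the treatment arrays. A further cluster of those symbols read 4.74, 6.55 and 4.07, then 15.8, 18.1 and 26.9. In all 3, every treatment array was above every control array, as in 7.47% of all clusters and 12.8% of olfactory receptor clusters. Their changes of 0.76 ± 0.192 and 0.77 ± 0.203 did not pass (limma, adjusted p = 0.278 and 0.322). The cluster of CCL4 alone, above, overlapped between the groups. The 3 clusters shared by CCL3L3, CCL3L1 and CCL3 also held the same values as each other, 160, 109 and 133 in the control and 151, 109 and 193 in the treatment arrays, a change of 0.14 ± 0.234. The cluster of CCL15 and CCL14 with their readthrough transcript changed by 0.12 ± 0.234, and that of CCL27 and LOC730098 by 0.08 ± 0.268. None of the 8 shared clusters passed. An unadjusted p under 0.05 in limma was reached by the 3 clusters of CCL4L1, CCL4L2 and CCL4, which include the pair of identical values, and by 7.3% of all clusters.

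No neutrophil attractant passed in limma (0 of 6), and only CXCL8 was below 0.05 before adjustment. CXCL8 (interleukin-8) read 22.0, 12.1 and 11.3 in the control and 39.9, 44.1 and 27.9 in the treatment arrays. The groups did not overlap, and the change was 0.78 ± 0.219, with an interval from 0.31 to 1.25 (limma, adjusted p = 0.397, unadjusted p = 0.0033). It was the only neutrophil attractant whose groups were apart.

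CXCL1 (GRO alpha) read 173, 116 and 95.1 in the control and 93.3, 117 and 170 in the treatment arrays, a change of -0.01 ± 0.256. CXCL2 (GRO beta) read 26.2, 74.2 and 52.8, then 65.5, 59.2 and 55.0, a change of 0.24 ± 0.259. Control replicate 1 was the low array, and without it the change of CXCL2 was -0.0565. CXCL3 (GRO gamma) read 162, 175 and 176, then 147, 191 and 232, a change of 0.12 ± 0.212. CXCL5 (ENA-78) read 70.8, 88.5 and 84.2, then 76.2, 88.8 and 106, a change of 0.12 ± 0.203. CXCL6 (GCP-2) read 49.7, 87.5 and 81.2, then 48.8, 68.3 and 108, a change of 0.01 ± 0.264. These 5 genes overlapped between groups, and their 95% intervals together ran from -0.56 to 0.80, so changes within that range were not resolved. CXCL1, CXCL2 and CXCL3 are close in sequence, and their probes may share signal.

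The ligands that bind CCR3 and draw eosinophils were dim, with control means of 15.5 to 17.8. CCL11 (eotaxin) had the largest change of the 3, 0.47 ± 0.225 (unadjusted p = 0.0555), and its groups overlapped. CCL26 and CCL24 changed by 0.06 ± 0.237 and 0.02 ± 0.232.

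Among the homing and constitutive ligands, 0 of 7 passed. CCL25, the thymus and gut ligand of CCR9, read 53.9, 57.4 and 62.9 in the control and 62.3, 111 and 108 in the treatment arrays, a change of 0.54 ± 0.227 (unadjusted p = 0.0337). Treatment replicate 1 lay within the control range, and the other treatment arrays lay above it. CCL21, a CCR7 ligand of lymphoid tissue, read 10.4, 22.4 and 10.7, then 22.5, 21.3 and 41.6, a change of 0.54 ± 0.238 (unadjusted p = 0.0415). Control replicate 2 and treatment replicates 1 and 2 gave nearly the same value.

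CXCL12 (SDF-1), the ligand of CXCR4, read 65.7, 96.8 and 108 in the control and 94.2, 97.4 and 52.7 in the treatment arrays. The change was -0.14 ± 0.248, and 0.10 without treatment replicate 3, the low array. CXCL14, an epithelial chemokine, read 15.8, 17.0 and 21.8, then 29.2, 26.3 and 8.47, a change of 0.08 ± 0.246. CCL28, a mucosal ligand of CCR10, read 17.8, 5.93 and 10.1, then 16.1, 7.81 and 9.73, a change of 0.01 ± 0.224. CCL19 (0.26 ± 0.207) and the B-cell attractant CXCL13 (-0.09 ± 0.198) completed the group.

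Neither membrane-anchored ligand passed. CXCL16, which also acts as a scavenger receptor, read 198, 295 and 293 in the control and 374, 367 and 270 in the treatment arrays. Treatment replicates 1 and 2 were above all control arrays and replicate 3 was within the control range, for a change of 0.35 ± 0.226 with an interval from -0.13 to 0.84. CX3CL1 (fractalkine) read 43.3, 32.3 and 28.3, then 31.5, 41.2 and 57.6, a change of 0.22 ± 0.224.

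Of the remaining 10 clusters, 3 had an unadjusted p under 0.05, and their groups did not overlap. Over all clusters 7.3% reached that level, and every treatment array was above every control array in 7.47%. CCL16, a liver-expressed CC chemokine, read 20.2, 26.5 and 18.5 in the control and 31.1, 38.5 and 49.3 in the treatment arrays, a change of 0.55 ± 0.208 (limma, adjusted p = 0.64). CCL1, the ligand of CCR8, read 36.8, 49.5 and 37.8, then 57.5, 59.9 and 78.4, a change of 0.50 ± 0.205 (adjusted p = 0.67). CCL18, a product of myeloid cells, read 15.98, 13.9 and 14.6, then 22.4, 22.2 and 35.1, a change of 0.45 ± 0.203 (adjusted p = 0.68). Treatment replicate 3 was the highest array for each of the 3. The other 7 clusters overlapped, among them the CCR4 ligands CCL17 (0.28 ± 0.243) and CCL22 (-0.27 ± 0.246), CCL23 (-0.20 ± 0.232), CXCL17 (-0.41 ± 0.245) and XCL2 (-0.04 ± 0.207). A pair of clusters carried the symbol XCL1 and changed by 0.31 ± 0.234 and 0.22 ± 0.235.

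**Figure D3:**
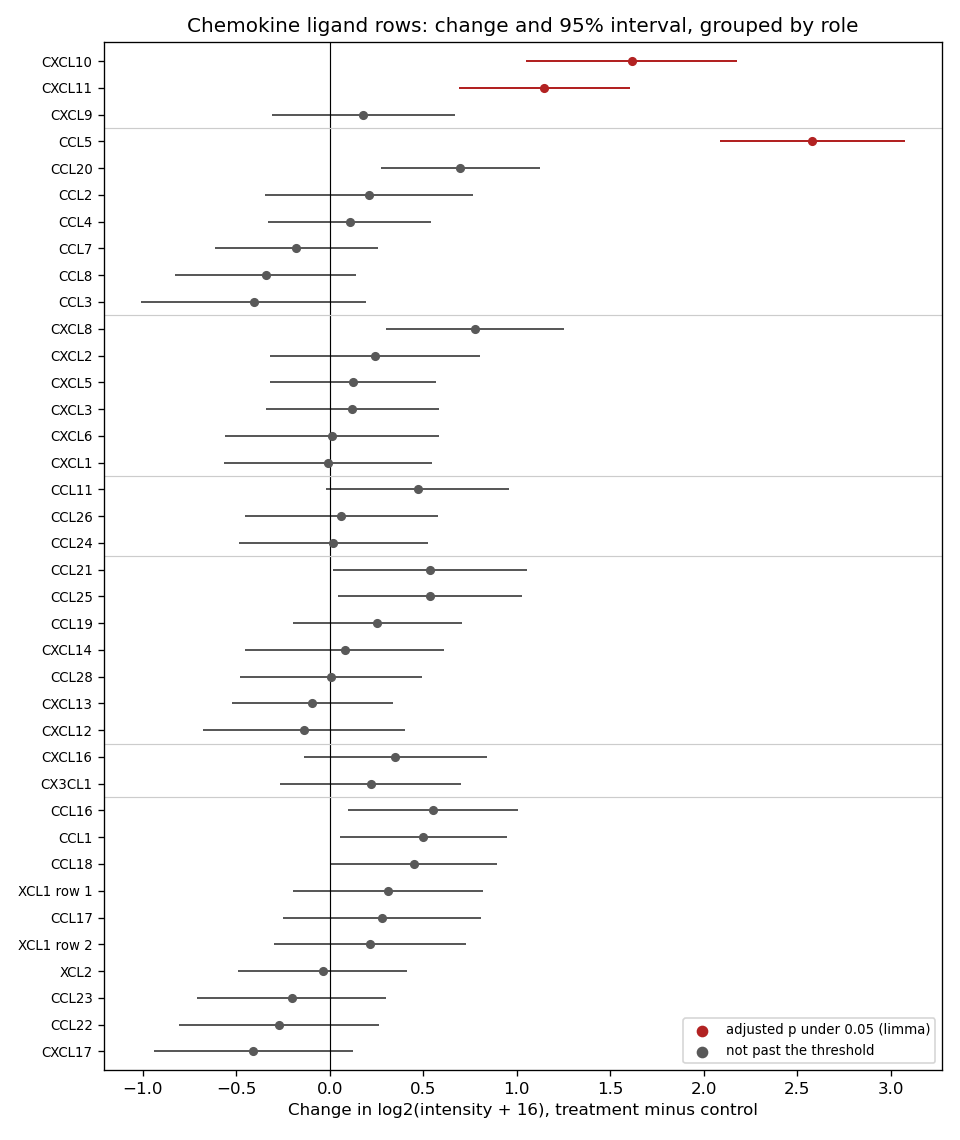
Change in log2(intensity + 16), treatment minus control, with its 95% interval for the 38 chemokine clusters, grouped by role. Red marks the 3 clusters past an adjusted p of 0.05 in limma, CCL5 (2.58), CXCL10 (1.62) and CXCL11 (1.15), and the other estimates lie between -0.41 and 0.78.

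An unadjusted p under 0.05 was reached by 10 of the 38 clusters, all higher in treatment, and 0 were lower. Of all clusters 7.3% reached that level, 5.01% higher and 2.29% lower, and of the olfactory receptor clusters 6.11% were higher. Every treatment array was above every control array in 8 of the 38, against 7.47% of all clusters and 12.8% of olfactory receptor clusters, and the reverse held in 0, against 7.1% of all clusters. The change was positive in 28 of 38 (73.7%), compared with 51.8% of all clusters and 67.5% of olfactory receptor clusters. The median change was 0.19 over the 38, 0.12 over the olfactory receptor clusters and 0.0116 over all clusters. These counts include the 3 ligands that rose. Over the 35 that did not pass, the median was 0.12, 71.4% were positive and 14.3% had every treatment array above every control array. These 3 values were close to those of the olfactory receptor clusters. An unadjusted p under 0.05 in limma was reached by 7 of the 35 (20%), more than the 7.22% of olfactory receptor clusters and 7.3% of all clusters. With quantile normalization the median over the 38 was 0.119 with 23 positive (0.0363 over the olfactory receptor clusters), and with an offset of 50 it was 0.10 with 28 positive (0.0547). Set against the control mean, the 38 clusters had a median of 0.155, 0.115 and 0.418 in treatment replicates 1, 2 and 3, and -0.0473 to 0.0485 in the control arrays. Without treatment replicate 3 the median change was 0.07, compared with 0.0922 over the olfactory receptor clusters. CCL5, CXCL10 and CXCL11 all passed without that array, with changes of 2.45, 1.87 and 1.27.

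**Figure D4:**
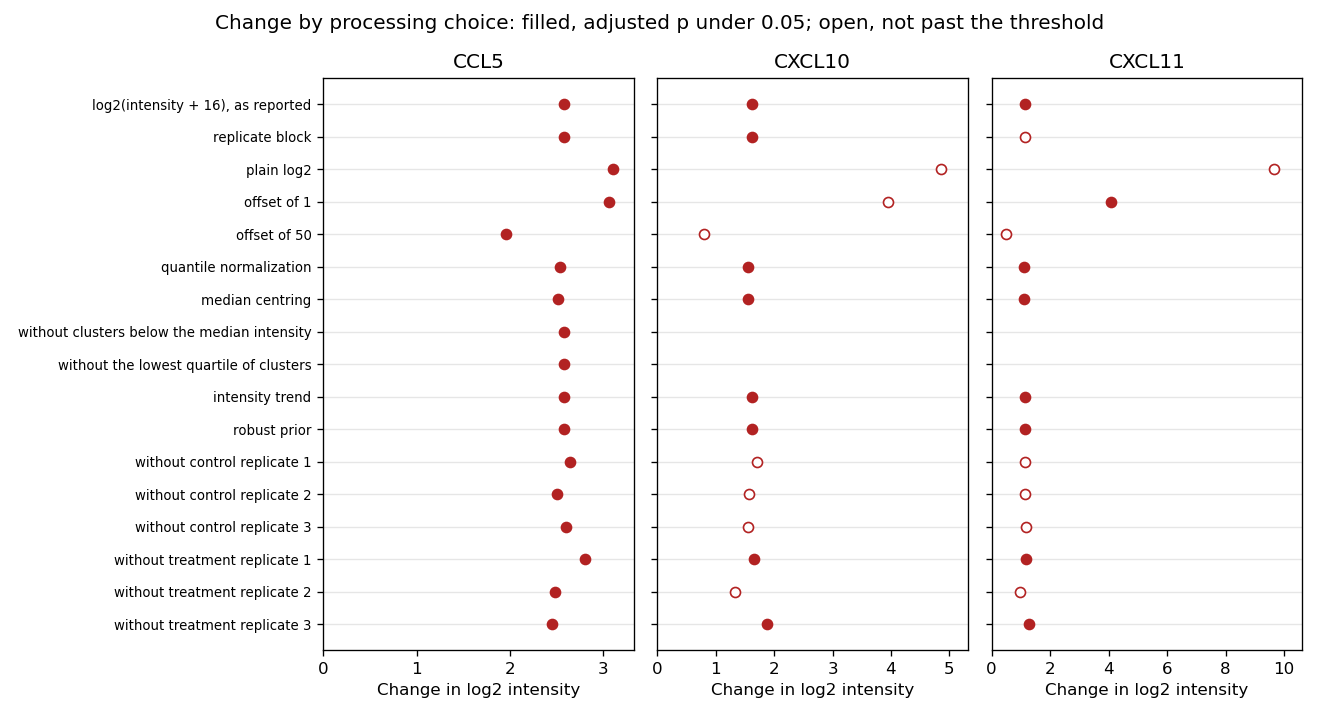
Change in log2 intensity of CCL5, CXCL10 and CXCL11 under each processing choice, with filled points past an adjusted p of 0.05 in limma and open points not past it; each panel has its own horizontal scale from 0. CCL5 is filled throughout, from 1.96 to 3.11, while CXCL10 spans 0.79 to 4.86 and CXCL11 0.48 to 9.65 with 7 open points each, and both filters on dim clusters removed the latter pair.

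Other genes of the pathway were taken from lists chosen by function, with earlier results of these arrays known. Of 21 chemokine receptor genes with a cluster of their own symbol, 0 passed in limma. Before adjustment 1 was below 0.05, namely CCR6, the receptor of CCL20, with means of 57.6 ± 5.33 and 93.8 ± 12.8 (SD, n = 3) and a change of 0.57 ± 0.199 (adjusted p = 0.593). CXCR3 itself read 23.3 ± 2.81 and 37.0 ± 15.8, a change of 0.39 ± 0.235, which missed the threshold. Of the 21 treatment means 5 were above the olfactory reference.

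Of 18 genes for factors and kinases that induce chemokines, IRF7 and IRF1 rose and 16 did not pass. IRF7, which drives interferon genes, went from 88.7 ± 8.61 to 333 ± 134 (SD, n = 3), a change of 1.67 ± 0.258 (limma, adjusted p = 0.00699). IRF1, which binds ISREs, read 82.9 ± 4.83 in control and 203 ± 36.6 in treatment arrays, and its change was 1.13 ± 0.204 (limma, adjusted p = 0.0254). The median change over the 18 genes was 0.14. An unadjusted p under 0.05 in limma was reached by 4 of the 18 (22.2%), against 7.3% of all clusters. They were IRF7, IRF1, IRF9 and IRF5. IRF9 changed by 1.02 ± 0.227 (limma, adjusted p = 0.136) and IRF5 by -0.46 ± 0.209 (adjusted p = 0.682). The NF-kB subunit RELA gave -0.25 ± 0.216 and the NF-kB inhibitor and target NFKBIA 0.36 ± 0.208, neither past the threshold. RELA and NFKBIA were named for their role and not by p-value.

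Of 15 proteases known to cleave chemokines, MMP13 (collagenase 3) rose, from 50.04 ± 5.31 to 208 ± 58.5 (SD, n = 3), a change of 1.73 ± 0.222 (limma, adjusted p = 0.00131). The other 14 did not pass, and the list's median change was 0.0805. DPP4, which trims the amino terminus of CCL5 and the CXCR3 ligands, read 37.3 ± 3.07 and 38.2 ± 12.7.

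The median intensity per array ran from 77.2 to 84.2 over all clusters, and treatment replicate 3 had the lowest mean correlation with the other arrays (0.963, across clusters, which are not independent). All 9 markers of HEK293 cells, among them VIM, KRT8, KRT18 and NEFM, were above the olfactory reference in both groups. Of 9 leukocyte markers, 0 passed, 0 had an unadjusted p under 0.05 and 2 were above it (CD14 and NCAM1), while PTPRC, the pan-leukocyte gene, read 23.4 ± 3.73 and 17.1 ± 7.57. Summed leukocyte marker intensity ran from 767 to 949 in control and from 781 to 992 in treatment arrays. Most of it came from NCAM1 (means of 524 and 501) and CD14 (182 and 212), so the sum says little about the other leukocyte markers. None of the 4 platelet, 5 endothelial and 7 fibroblast markers passed either, with sums of 207 to 316 and 313 to 349, 773 to 1145 and 832 to 1491, and 505 to 691 and 463 to 626 in control and treatment arrays. Most of the endothelial sum came from CDH5 (means of 776 and 882). At an unadjusted p under 0.05, which 7.3% of all clusters reached, were 1 of 4 platelet markers (GP9, 0.80), 0 of 5 endothelial markers, 3 of 7 fibroblast markers (PDGFRB, 0.64, COL1A2, 0.47, and COL1A1, -0.46) and 1 of 9 HEK293 markers (PAX2, 0.76), these values being log2 changes. The part of other cell types in the chemokine values was not tested. In such bulk RNA, more cells making a chemokine and more RNA per cell cannot be told apart.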

How the data were processed

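The authors deposited 1 intensity for each transcript cluster on each array, on a linear scale, as judged from the values' range. Per the submitters' processing notes they used Partek. Background correction, normalization, probe summary and genome build: not given in the sources used here. Symbols came from the platform annotation of 2016, and all 37 ligand symbols are in RefSeq. Treatment was compared with control by limma 3.58.1 (lmFit and eBayes, R 4.3.3) on log2(intensity + 16), without a block. Tests were two-sided and p-values were adjusted (Benjamini-Hochberg) across all 33297 clusters. For other lists, a gene's brightest cluster was used. Alternatives were a replicate block, other offsets or none, quantile normalization, median centring, filters on dim clusters, an intensity trend, a robust prior, stricter thresholds and leaving out each array. On simulated data for this comparison, over 33297 clusters with 50 changed clusters per fold, all brighter than an intensity of 50, changes of 1.5-fold were called in 0%, of 2-fold in 26%, of 4-fold in 92% and of 8-fold in 98%, with 1 false call. Dimmer clusters, as most chemokines are, were not part of the changed set. The members, the gene lists, the offset and the named genes (every cluster that passed or had an unadjusted p under 0.05, and 21 ligands chosen by role) were chosen with earlier results of these data known. Array number limits the precision.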

Additional observations from a re-analysis of the deposited data

How the results depend on the processing

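The number of ligands past the threshold was 3, and it fell to 1 (CCL5) at an offset of 50, with no offset (a plain log2) and when either filter on dim clusters was applied; the filters kept 8 and 22 of the 38 clusters and left out CXCL10 and CXCL11. Leaving out 1 array gave 1 to 3. Over all clusters the count was 124, against 40 under a plain log2, 58 at an offset of 1, and 69 to 129 without 1 array (69 without control replicate 1, 82 without treatment replicate 2). The replicate number as a block gave 2 ligands, CCL5 and CXCL10, and 105 clusters. Deviations from the group mean correlated at -0.166, 0.0839 and -0.356 between same-numbered arrays, and at -0.187 to 0.363 between other-numbered ones. With 3 arrays per group these correlations are not independent, so they cannot decide whether the numbers pair the arrays. Of the 26 ligands named with values in every array, 0 passed only in an alternative and 9 changed sign in at least 1, all of them short of the threshold. With quantile normalization CXCL14 was -0.00654, CXCL6 -0.0436 and CCL28 -0.0491, and with median centring CXCL6 was -0.044 and CCL28 -0.0481. Without 1 array, CXCL2 ran from -0.0565 to 0.49, CXCL9 from -0.0154 to 0.35, CXCL3 from -0.0234 to 0.28, CXCL12 from -0.31 to 0.10, CCL4 from -0.0124 to 0.19, CXCL14 from -0.0839 to 0.36, CXCL6 from -0.24 to 0.23, CXCL1 from -0.22 to 0.20 and CCL28 from -0.14 to 0.17. The cause was not tested. Dim signal limits CXCL10 and CXCL11, whose size depends on the offset.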

Other observations

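The genes that flank the ligands on the chromosome, in RefSeq order on GRCh38.p14, were looked at after the values of the ligands were known. CCL5 lies between HEATR9 and RDM1. HEATR9 had a mean of 20.1 ± 3.25 under control and one of 37.2 ± 6.27 under treatment (SD, n = 3), and its log2 change of 0.56 ± 0.199 missed the threshold (limma, adjusted p = 0.61). RDM1 gave -0.14 ± 0.27, and TAF15, an RNA-binding protein on the far side of HEATR9, gave 0.09 ± 0.227 at means of 1308 and 1408. CXCL10 lies between ART3 and CXCL11. ART3 gave -0.05 ± 0.201. The brighter neighbours NUP54, a nuclear pore protein beyond CXCL11, and SDAD1, beyond CXCL9, gave -0.16 ± 0.212 and 0.03 ± 0.254. CCL5, CXCL10 and CXCL11 were already known to have passed, so their calls are no result of this look. No other gene within 3 places of CXCL10 or CCL5 that had a cluster of its own passed. Before adjustment HEATR9 (limma, unadjusted p = 0.0144) and CCL16, 3 places from CCL5 (0.55 ± 0.208, unadjusted p = 0.0192), were below 0.05, both higher in treatment. Of all clusters 7.3% reached that level.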
